A study of Mus musculus with 2 samples.

Results

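The osteoclast genes described here belong to the multinucleated cell that resorbs bone, and were followed in bone marrow cells cultured with the herbal drug ninjin'yoeito (NYT). The 10 genes were Acp5, Calcr, Oscar, Dcstamp, Ocstamp, Nfatc1, Tnfrsf11a, Clcn7, Ostm1 and Src, taken by gene name from the array files, where Dcstamp stood as Tm7sf4 and Ocstamp as 4833422F24Rik. All 10 were on the whole-genome one-colour array, with 13 of its 39421 probes, among 30163 named genes. The NYT group was 1 culture given NYT and the control group was 1 culture given nothing. Both held mononuclear cells (BM MNCs) of C57/Bl6J mice aged 2 to 4 months, flushed from the femur in medium with 2% serum and harvested at day 11. The labels name no dose, cytokine, sort or number of mice per culture, and they differ from the design text in the RNA kit. With no sort named, the cells may be of several types, and the presence of mature osteoclasts was not established. With 1 array per group, every difference below is one between 2 arrays, without replicates, and no test was made.

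An osteoclast arises when a precursor of the macrophage lineage meets RANK ligand and macrophage colony-stimulating factor. RANK and immunoreceptor-coupled receptors such as OSCAR together raise calcium and switch on NFATc1, the master transcription factor, which induces the fusion proteins DC-STAMP and OC-STAMP and the resorption genes. The mature cell seals itself to bone through integrins and Src, secretes acid through a proton pump with the chloride exchanger ClC-7 and its partner OSTM1, and secretes tartrate-resistant acid phosphatase and proteases, and calcitonin restrains it through its receptor. Several of these genes, among them Acp5, Tnfrsf11a, Clcn7 and Ostm1, are also used by macrophages or other cells, so none of them alone marks an osteoclast.

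The osteoclast genes did not differ in 1 direction. On the NYT array the phosphatase Acp5 and the fusion gene Dcstamp were 4.16-fold and 5.74-fold lower than on the control array, while Src, Clcn7 and Tnfrsf11a were 2.71-fold, 2.17-fold and 2.08-fold higher. Ostm1, Oscar, Ocstamp and Nfatc1 differed by less than 2-fold. Calcr was well above background on the NYT array alone. In such unsorted cultures, fewer cells of a type and less RNA per cell cannot be told apart. These folds are after each array was scaled to its 75th percentile. Before scaling Clcn7 and Tnfrsf11a were nearly level between the arrays and Src was 1.34-fold higher, while Acp5 and Dcstamp stood 8.43-fold and 11.6-fold lower on the NYT array.

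Of the 9 genes measured on both arrays, 3 were at least 2-fold higher on the NYT array, against 11.2% of all 16996 measured genes, and 2 were at least 2-fold lower, against 11.0%. The median log2 difference of the 9 was 0.29, and that of all measured genes was also 0.29. As scaled, the list of 9 genes thus lay at the middle of the array, with members far out on either side. Without scaling the 2 medians were again level, at -0.73. With quantile normalization that of the list stood 0.27 above that of all genes, and after loess 0.10 above. Only 4.9% of measured genes had a lower value than Acp5, and 3.8% a lower one than Dcstamp. At the other end 96.0% had a lower value than Src, 91.6% than Clcn7 and 90.3% than Tnfrsf11a.

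**Figure D1:**
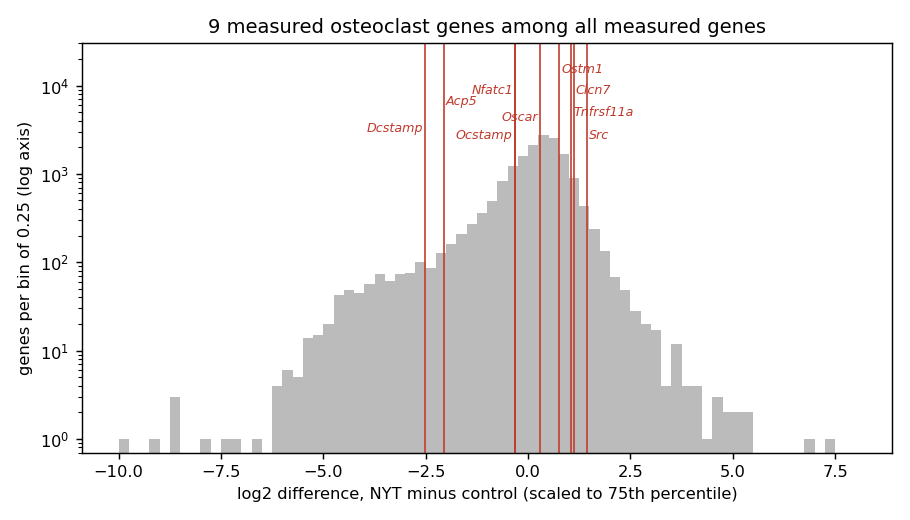
The histogram counts all 16996 measured genes by their log2 difference, NYT minus control, after scaling to the 75th percentile, with a log axis for the counts. Red lines mark the 9 measured osteoclast genes: Dcstamp (-2.52) and Acp5 (-2.06) lie in the lower tail, and Src (1.44), Clcn7 (1.12) and Tnfrsf11a (1.06) on the upper side.

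The 75th percentile intensity was 728 on the NYT array and 1476 on the control array, a ratio of 2.03, so scaling added 1.02 to every log2 difference. Probes well above background made up 57.7% on the NYT array and 62.2% on the control array. Across measured genes the median was 0.29 after that scaling, -0.73 before it, 0.20 with quantile normalization, -0.03 after loess and -0.89 when scaled to 8 spike-in RNAs. The split of the 9 genes moved with it. Without scaling none was at least 2-fold higher, against 1.24% of all genes, and 4 were lower, against 36.4%. With spike-in scaling the counts were also 0 and 4, against 0.977% and 44.0% of all genes. With quantile normalization 1 was higher and 2 were lower, against 11.0% and 10.7%, and after loess 1 and 2, against 5.43% and 14.1%. With normexp background correction both counts were 2, against 8.76% and 8.1%. A difference between 0 and 1.02 as scaled was below 0 without scaling, and one under 1.18 was below 0 with spike-in scaling, which holds for every gene named below. For this reason each gene is also given below relative to the median of all genes, over 8 scalings and background treatments.

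The sequences that follow are a probe and promoters of genes described here, and no difference was computed from the promoters. The first is the 60-base probe that alone measured Src, shown because it lies in coding sequence and crosses an intron: it spans 932 bases of chromosome 2, from 157293336 to 157294267 on the plus strand (mm9, the build of the file headers).
Src probe: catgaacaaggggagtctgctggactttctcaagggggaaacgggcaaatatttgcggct
The others are promoters from RefSeq (GRCm38.p6), each running from 250 bases before a transcription start to 50 after it. They are those of Clcn7 and Ostm1, which make 1 transporter and both lay above the median gene, and of Acp5, which lay far below it. Capitals mark matches, on either strand, to any of 5 motifs searched.
Clcn7, chr17:25133141-25133440, plus strand: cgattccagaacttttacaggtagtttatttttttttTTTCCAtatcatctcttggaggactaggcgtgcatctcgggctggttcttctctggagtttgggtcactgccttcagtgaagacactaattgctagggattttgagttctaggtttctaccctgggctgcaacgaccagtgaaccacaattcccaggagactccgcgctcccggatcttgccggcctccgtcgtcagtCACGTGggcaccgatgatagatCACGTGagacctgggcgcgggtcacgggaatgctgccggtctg
Ostm1, chr10:42678666-42678965, plus strand: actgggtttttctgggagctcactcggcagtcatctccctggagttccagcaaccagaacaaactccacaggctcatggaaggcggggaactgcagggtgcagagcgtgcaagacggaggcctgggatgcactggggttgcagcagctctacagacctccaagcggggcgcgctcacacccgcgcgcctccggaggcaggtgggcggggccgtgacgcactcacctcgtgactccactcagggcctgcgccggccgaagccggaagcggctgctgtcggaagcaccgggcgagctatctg
Acp5, chr9:22130549-22130848, minus strand: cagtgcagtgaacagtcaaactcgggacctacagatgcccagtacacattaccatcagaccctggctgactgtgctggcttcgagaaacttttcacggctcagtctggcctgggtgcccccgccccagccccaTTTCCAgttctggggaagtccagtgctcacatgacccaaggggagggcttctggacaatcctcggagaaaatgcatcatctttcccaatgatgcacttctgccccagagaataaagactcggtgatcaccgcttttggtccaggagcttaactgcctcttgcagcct

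The motifs were CACGTG, an E-box bound by MITF and TFE factors, and CLEAR, the longer lysosomal element that contains it. The others were TGANTCA of AP-1, GAGGAAGT of PU.1 and TGGAAA of NFAT, whose reverse complement is TTTCCA. The Clcn7 window held CACGTG at 2 places, from base -15 to -10 and from base 8 to 13 relative to the start. Of 32851 promoter windows, 7.15% held CACGTG and 0.594% held it more than once. The Clcn7 and Acp5 windows each had 1 match to TGGAAA, which 21.4% of all windows held, and Oscar's had 2. No letters of the 5 motifs were in the windows of Ostm1, Calcr, Tnfrsf11a or Src. RefSeq windows matched 7 of the 10 genes, with 11 windows in all, of which 3 were for Acp5. The other 2 Acp5 windows held no match, nor did the second of Clcn7. AP-1, PU.1 and the longer lysosomal element matched none of the 11 windows, where 7.81%, 3.2% and 0.326% of all windows held them. A match describes letters and shows no binding. Only these 5 strings were searched, so the windows, that of Acp5 among them, may hold other sites of the same factors unmarked.

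**Figure D2:**
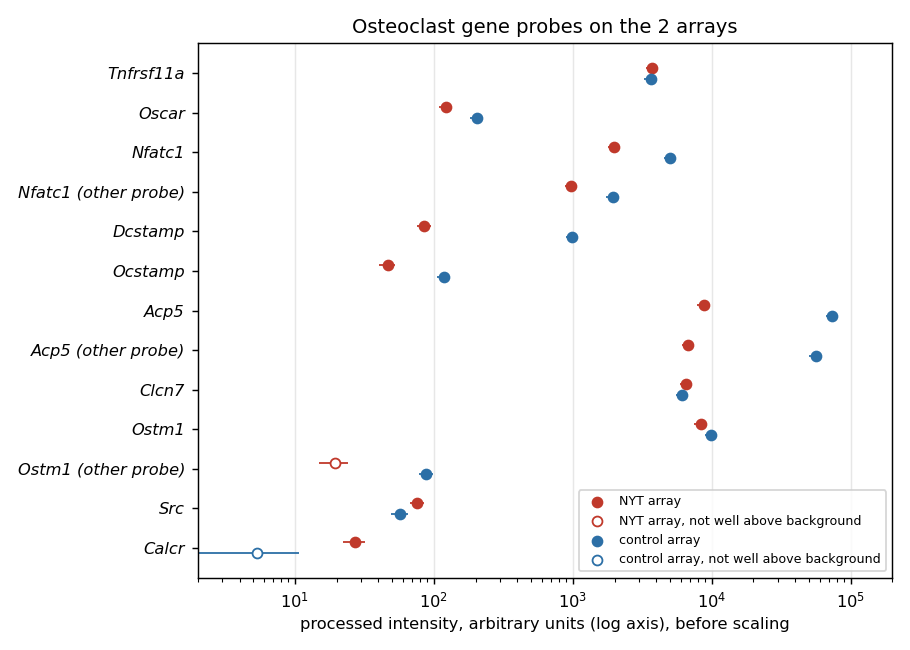
Processed intensity of each probe before scaling, on a log axis, with the NYT array in red above the control array in blue. Bars are the scanner software's error for the spot (running off the axis for Calcr on the control array), and open points were not well above background. The Acp5 and Dcstamp points are far apart, those of Tnfrsf11a, Clcn7 and Ostm1 nearly meet, and Calcr and the other Ostm1 probe have 1 open point each.

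Each of these probes was printed once, so its only error is the scanner's estimate, near 0.1 of the signal for bright spots, and the noise of other probes printed 10 times. For those the median SD of a log2 difference between single spots was 0.044 above an intensity of 1000, 0.072 from 100 to 1000 and 0.192 below 100. This covers spots and neither cultures nor hybridisations.

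The receptors came out differently. Tnfrsf11a encodes RANK, the receptor through which RANK ligand commits the precursor. Its intensity was 3736 on the NYT array and 3639 on the control array, and its log2 difference was 1.06. It stood 0.77 above the median of all genes, between 0.53 and 0.78 over the 8 settings. Without scaling the difference was 0.04, below the spot noise of 0.044, and with spike-in scaling -0.12, so its 2-fold call rests on the scaling. Its probe lies on chromosome 1 from 107741892 to 107741951, plus strand (mm9).

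Oscar encodes the collagen receptor that costimulates RANK through an immunoreceptor adaptor. Its intensity was 123 on the NYT array and 204 on the control array, a log2 difference of 0.29 as scaled and -0.73 without scaling. That is the median of all genes in both cases. Calcr, the calcitonin receptor of the mature osteoclast, had an intensity of 27.1 on the NYT array, with a scanner error of 4.89, and 5.39 on the control array, with an error of 5.38. Only the first was well above background. Against the dimmest detected signal of the control array, 26.04, Calcr was at least 2.11-fold higher on the NYT array. Such a bound of 2-fold or more towards NYT was reached by 12.2% of the 2408 genes detected on 1 array. The bound was 1.08 on the log2 scale as scaled and 0.06 without scaling, and with spike-in scaling it was -0.10, which gives no fold. The highest of 153 negative control spots read 22.9 on the NYT array and 44.0 on the control array. Calcr was thus dim, and its detection rests on 1 spot that exceeded the highest blank spot of its array by less than its own scanner error.

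Nfatc1, the transcription factor on which the pathway converges, was measured by 2 probes designed to different transcripts. The first had an intensity of 1990 on the NYT array and 5021 on the control array, a log2 difference of -0.32. The second had 973 and 1937 on the NYT and control arrays, a difference of 0.03. The 2 probes differed from each other by more than the spot noise, and neither reached 2-fold. The first stood 0.60 below the median of all genes, at -0.66 to -0.58 over the settings.

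The fusion genes separated from each other. Dcstamp encodes the membrane protein without which osteoclast precursors stay mononuclear. Its intensity was 85.6 on the NYT array and 996 on the control array, a log2 difference of -2.52. Relative to the median of all genes it stood between -2.81 and -2.16 in every one of the 8 settings, the smallest with normexp background correction. Its probe lies on chromosome 15 from 39592421 to 39592480, plus strand (mm9). Ocstamp, which acts with Dcstamp in fusion, had an intensity of 46.7 on the NYT array and 119 on the control array. Its difference was -0.33 as scaled, -1.34 without scaling and 0.22 with normexp, so the direction of that difference is not settled. Relative to the median of all genes it stood between -0.61 and -0.12 over the 8 settings, against a spot noise of 0.192 at this brightness. The value of Ocstamp exceeded that of Dcstamp by 2.04 to 2.29 over the 8 settings, a pair compared after the values were seen.

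Acp5, tartrate-resistant acid phosphatase, the classic histochemical stain for osteoclasts, was read by 2 probes that share 45 of their 60 bases and so are not independent. The first had an intensity of 8738 on the NYT array and 73632 on the control array, and the second 6775 and 55959 on the NYT and control arrays. Their log2 differences were -2.06 and -2.03. Relative to the median of all genes the first stood between -2.61 and -2.34 in the 8 settings. It was at least 2-fold lower in each of them. The probes lie on chromosome 9 from 21931175 to 21931249, minus strand (mm9).

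Clcn7 and Ostm1 encode the chloride-proton exchanger of the ruffled border and lysosome and the subunit that stabilises it, and loss of either causes osteopetrosis. Clcn7 had an intensity of 6559 on the NYT array and 6130 on the control array, a log2 difference of 1.12 as scaled, 0.10 without scaling and -0.06 with spike-in scaling. Ostm1 had 8323 on the NYT array and 9918 on the control array, a difference of 0.77 as scaled and -0.25 without scaling. Both lay above the median of all genes in each of the 8 settings, Clcn7 by 0.72 to 0.83 and Ostm1 by 0.27 to 0.48. A second Ostm1 probe, made to another transcript, read 19.6 on the NYT array, where it was not well above background, and 88.6 on the control array, so it did not follow the first. The Clcn7 probe lies on chromosome 17 from 25298348 to 25298407, and the brighter Ostm1 probe on chromosome 10 from 42422061 to 42422120, both on the plus strand (mm9).

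Src, the kinase that organises the podosome belt and ruffled border, was dim. The coding probe read 76.0 on the NYT array with a scanner error of 8.59, and 57.0 on the control array with an error of 7.97. The log2 difference was 1.44 as scaled, 0.42 without scaling and 0.26 with spike-in scaling, against a spot noise of 0.192 at this brightness. Src kept a value above 0 in all 8 settings and stood 0.80 to 1.41 above the median of all genes.

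A constant scaling cancels when 2 genes are compared on the same arrays. The log2 difference of Clcn7 exceeded that of Acp5 by 3.17, and by up to 3.33 over the 8 settings. That of Tnfrsf11a exceeded that of Dcstamp by 2.70 to 3.58. These pairs were chosen after their values were seen. Clcn7 and Tnfrsf11a thus stood above Acp5 and Dcstamp in each setting, whereas whether Clcn7 and Tnfrsf11a differed at all depends on the scaling.

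**Figure D3:**
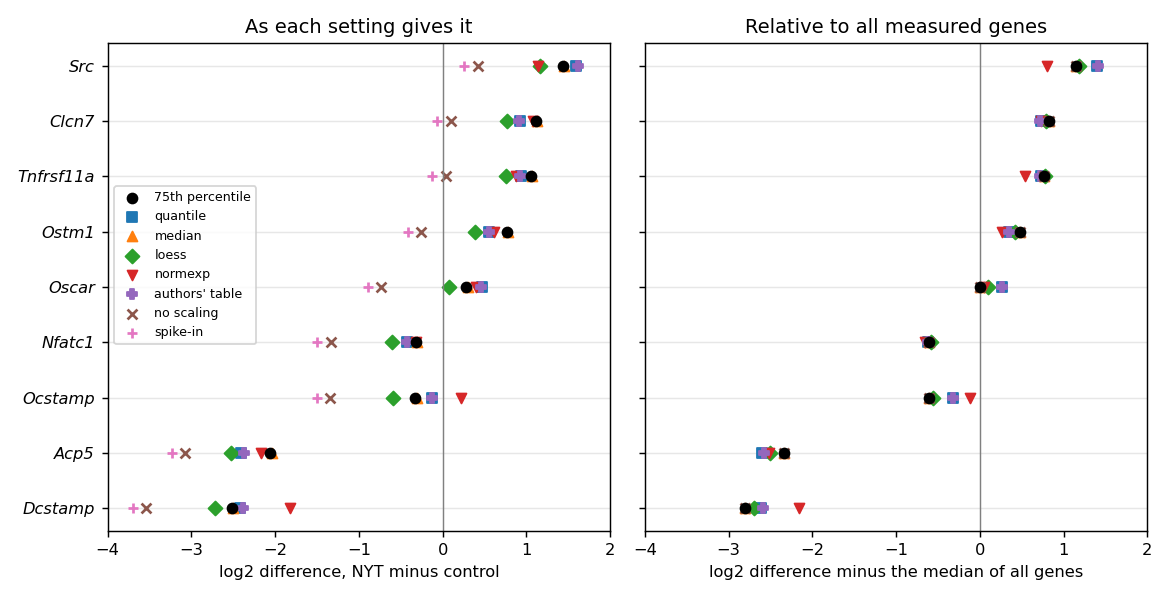
Log2 differences, NYT minus control, of the 9 measured osteoclast genes under 8 scalings and background treatments, as each setting gives them (left) and after subtracting the median of all measured genes (right). On the left the values of Clcn7 and Tnfrsf11a reach -0.06 and -0.12 with spike-in scaling, and on the right each gene keeps to 1 side of 0 except Oscar, which lies between 0.00 and 0.27.

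The other genes of the pathway were taken from lists. None of the 6 ligand and receptor genes was higher on the NYT array, and the 2 measured on both differed by under 2-fold. Csf1r, the receptor for macrophage colony-stimulating factor, had an intensity of 54387 on the NYT array and 204061 on the control array, a log2 difference of -0.89 (-1.91 without scaling). The other Csf1r probes stood at -1.376 and -0.485 as scaled. The Csf1r ligand Csf1, measured too, differed by -0.66, with its other probes at -0.993 and -0.961. Tnfsf11, which encodes RANK ligand, was well above background on the control array alone (intensity 4.2 on the NYT array and 82.9 on the control array), with a bound of at least 2.13-fold lower for NYT. Il34, the other ligand of Csf1r, was likewise at least 2.33-fold lower. The decoy receptor Tnfrsf11b was detected on the control array alone, with no fold because its bound was under 1. Among the 2408 genes detected on 1 array, 30.4% reached such a bound towards the control array. Tnfrsf11a exceeded Csf1r in log2 difference by 1.80 to 2.43 over the 8 settings.

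Of 18 RANK signalling genes, all measured, 4 were at least 2-fold higher (22.2%, against 11.2% of all measured genes) and 1 was lower (5.56%, against 11.0%). After loess 2 were higher and 2 lower. Without scaling none was higher and 6 were lower (33.3%, against 36.4%), near the share of all genes. Map3k14, the kinase of the alternative NF-kB pathway, stood at -1.53 in its brightest probe and at -0.17 in a second. Mapk8, a stress kinase, differed by 1.47 at a dim 50.9 on the NYT array and 37.2 on the control array, with its other probes at -0.15 and 1.91. Gab2, a RANK adaptor, differed by 1.33, and Sqstm1, a scaffold for TRAF6, by 1.24, with its other probe at 0.46. Traf6 itself, the main adaptor of RANK, picked for its role after its value was seen, stood at 0.03 (-0.99 without scaling), with its other probes at 0.53 and 0.69. Of 17 measured genes of immunoreceptor costimulation and calcium signalling, 2 were higher (11.8%, against 11.2%) and 1 was lower (5.88%, against 11.0%), near or under the shares of all genes. With quantile normalization none was higher, and without scaling none was higher and 7 were lower (41.2%, against 36.4%). Trem2, a receptor that signals through Tyrobp, differed by 1.63, Ppp3r1, the regulatory subunit of calcineurin, by 1.04 (0.02 without scaling and below 0 with spike-in scaling), and Sirpb1a by -1.94. Camk4, a calcium-dependent kinase, was detected on the control array alone, with a bound of at least 5.90-fold lower for NYT.

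Of 16 transcription factors of osteoclast formation, none was at least 2-fold higher and 4 were lower, and without scaling 10 were lower. Those 4 of 16 stand against 11.0% of all measured genes, and the unscaled 62.5% against 36.4%. Only 3 were lower with quantile normalization, with normexp and in the authors' value table. The 4 lay just past 2-fold: Jdp2 differed by -1.15, Fos by -1.13, Fosl1 by -1.06 and Fosl2 by -1.05. Jun and Junb, AP-1 genes of the same list picked after their values were seen, stood at 0.47 (-0.55 without scaling) and -0.61. Fos had an intensity of 2579 on the NYT array and 11412 on the control array, while Fosl1 was dim, at 26.0 on the NYT array and 110 on the control array. The list median was -0.01, 0.30 below that of all genes. Mitf, which with the TFE factors drives Acp5 and Ctsk, stood at -0.26 in its brightest probe and 0.48 in another, and Spi1, which encodes PU.1, at 0.20 (-0.82 without scaling), both picked for their roles after their values were seen. Of 11 measured repressors of osteoclast formation, Id2 alone was at least 2-fold higher (9.09%, against 11.2% of all measured genes), and none was lower. Id2 differed by 1.16 (0.14 without scaling and below 0 with spike-in scaling). Without scaling none of the 11 was higher and 6 were lower (54.5%, against 36.4%). Irf8, which holds NFATc1 in check, differed by -0.14 (-1.16 without scaling), and was likewise picked after its value was seen.

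The acid and protease genes stood apart from the transcription factors. Of 19 measured, 11 were at least 2-fold higher (57.9%, against 11.2% of all measured genes) and 2 were lower (10.5%, against 11.0%). The list includes proton pump subunits and proteases that also serve lysosomes in other cells, so its count is not one of osteoclasts alone. The count of higher genes was 7 with quantile normalization and in the authors' value table, and 5 after loess. The list median was 1.22 as scaled, 0.20 without scaling and 0.04 with spike-in scaling. It lay 0.48 to 0.93 above the median of all genes over the 8 settings. Without scaling 2 genes were higher and 3 lower (10.5% and 15.8%, against 1.24% and 36.4%). Ctsk, cathepsin K, the main collagen-degrading protease of the osteoclast, had an intensity of 7526 on the NYT array and 3115 on the control array, a log2 difference of 2.29. Atp6v1c1, a proton pump subunit, differed by 2.21, and Tcirg1, the pump subunit mutated in osteopetrosis, which was named after its value was seen, by 1.92. The 2 lower genes were on the same list. Mmp9, gelatinase B, had an intensity of 292 on the NYT array and 14173 on the control array, a difference of -4.58. Car2, carbonic anhydrase II, which supplies the protons, had 101 on the NYT array and 3108 on the control array, a difference of -3.93. Ctsk exceeded Acp5 by 4.35 to 4.53 in log2 difference over the 8 settings, and Mmp9 by 6.57 to 6.87.

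**Figure D4:**
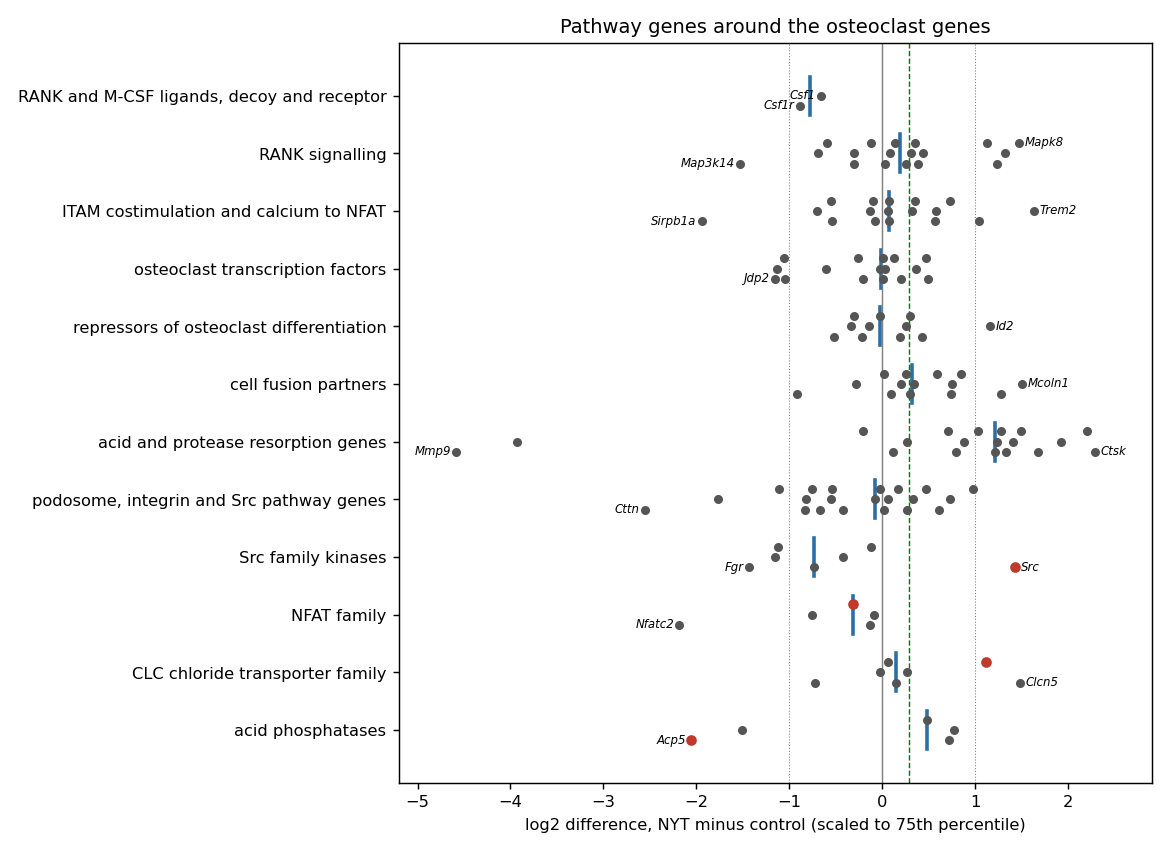
Each point is a gene measured on both arrays, by its log2 difference, NYT minus control, after scaling to the 75th percentile. Red points are Src, Nfatc1, Clcn7 and Acp5, blue bars are list medians, the dashed green line is the median of all genes (0.29) and dotted lines mark 2-fold. The acid and protease list has a median of 1.22 (0.20 without scaling), with Mmp9 and Car2 far below the other genes.

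Of 14 measured partners in cell fusion, 2 were at least 2-fold higher (14.3%, against 11.2% of all measured genes), near the share of all genes. These were Mcoln1 at 1.51 and Atp6v0d2, a pump subunit needed for fusion, at 1.28. Their other probes stood at 0.24 and 0.35, and without scaling none was higher and 3 were lower (21.4%, against 36.4%). None of the 14 was at least 2-fold lower as scaled, against 11.0% of all measured genes. With quantile normalization and after loess 1 was (7.14%, against 10.7% and 14.1%). Atp6v0d2 also counts among the acid genes. Of 21 measured podosome, integrin and Src pathway genes, none was higher and 3 were lower (14.3%, against 11.0% of all measured genes). Without scaling 12 were lower (57.1%, against 36.4%), and 5 were with quantile normalization, after loess and in the authors' value table. Sh3pxd2a, a podosome scaffold, was detected on the NYT array alone, with a bound of at least 2.13-fold higher (intensity 27.4 on the NYT array and 20.1 on the control array). The integrin chains Itgb1 and Itgav, picked after their values were seen, stood at 0.97 and 0.48 in their brightest probes (-0.05 and -0.54 without scaling) and at 2.32 and 1.47 in their other probes. Cttn, cortactin, an actin-binding substrate of Src, differed by -2.55 by 1 probe and -2.14 by another, Rhou, a small GTPase, by -1.76, and Dock5, an activator of Rac needed for resorption, by -1.11. Itgb3, the beta chain of the vitronectin receptor that the osteoclast uses to grip bone, stood at -0.02 in its brightest probe (-1.04 without scaling). Its other probe stood at 0.62.

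Within their families the members did not all stand apart. As scaled Src did, while Nfatc1 was at the median of the NFAT genes (-0.32). Clcn7 and Acp5 each had another gene of the family at least 2-fold apart on the same side. For comparison, 11.2% of all measured genes were at least 2-fold higher and 11.0% lower as scaled. Without scaling these shares were 1.24% and 36.4%. As scaled, Src alone of 7 measured Src family kinases stood above 0, and the list median was below 0 in each of the 8 settings. Fgr (-1.43), Fyn (-1.15) and Lck (-1.13) were at least 2-fold lower, and Lyn and Blk stood at -0.73 and -0.42. Of the 5 NFAT genes, Nfatc2 alone was 2-fold lower as scaled (-2.18, with an intensity of 835 on the NYT array and 7680 on the control array), and without scaling all 5 were. Of 7 measured CLC genes, Clcn7 and Clcn5 (1.49) were higher, and without scaling neither reached 2-fold. Clcn3, Clcn4, Clcn2 and Clcn6 stood between -0.02 and 0.27, and all 4 below 0 without scaling. Of 5 acid phosphatases, Acp5 and Acpp (-1.51) were lower, while Acp2, the lysosomal enzyme, stood at 0.77, Acp1 at 0.73 and Acp6 at 0.49, all below 0 without scaling. Acp2 exceeded Acp5 by 2.83 to 3.10 over the 8 settings. Among genes that act with Calcr, Ramp3, which turns it into an amylin receptor, was detected on the control array alone, with a bound of at least 15.2-fold lower for NYT. Ramp1 stood at -1.37 in its brightest probe, with its other probes at 0.23 and 0.64. Calca, which encodes calcitonin, was at least 3.31-fold lower.

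Marker genes of the cells that could carry these transcripts differed too, though not for every cell type. For comparison, 11.0% of all measured genes were at least 2-fold lower and 11.2% higher as scaled. Of 10 macrophage markers, all measured and none at 0, 6 were at least 2-fold lower and 1, Cd68 (1.18 as scaled, 0.16 without scaling), was higher. Their summed signal was 293 times the 75th percentile on the NYT array and 421.5 times on the control array. Markers of monocytes, among which osteoclast precursors are found, were at least 2-fold lower for 4 of 5 measured genes, with sums of 17.7 and 116 on the NYT and control arrays, and Ccr2 at -4.33 and Cx3cr1 at -4.02. Of 7 megakaryocyte and platelet markers, all were lower, with sums of 31.1 on the NYT array and 271.9 on the control array. Markers of neutrophils, which also carry Mmp9, were lower for 6 of 8, all measured, with sums of 310.4 on the NYT array and 693.9 on the control array. Of 9 osteoclast markers, 8 were measured, of which Ctsk and Atp6v0d2 were higher, Acp5, Dcstamp and Mmp9 were lower, and the sums were 96.6 on the NYT array and 119.7 on the control array. Mast cell and basophil markers were lower for 4 of 4 measured, with a median of -6.11. Those of T and NK cells, which include Lck, were lower for 5 of 6, with a median of -2.47, and erythroid ones were lower for 3 of 4, with a median of -3.29. Dendritic cell markers had a median of 0.30, beside 0.29 for all measured genes, with 2 of 5 measured at least 2-fold lower. B cell markers had a median of -0.24, with 1 of 6 at least 2-fold lower. General leukocyte markers had sums of 108.9 and 113 on the NYT and control arrays, but their members went both ways. Coro1a (-1.15) was at least 2-fold lower and Ptprc stood at -0.95, while Laptm5 and Cd53 stood at 0.91 and 0.75, and without scaling all 5 were below 0. The part of these cell types in the values of the osteoclast genes was not tested.

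**Figure D5:**
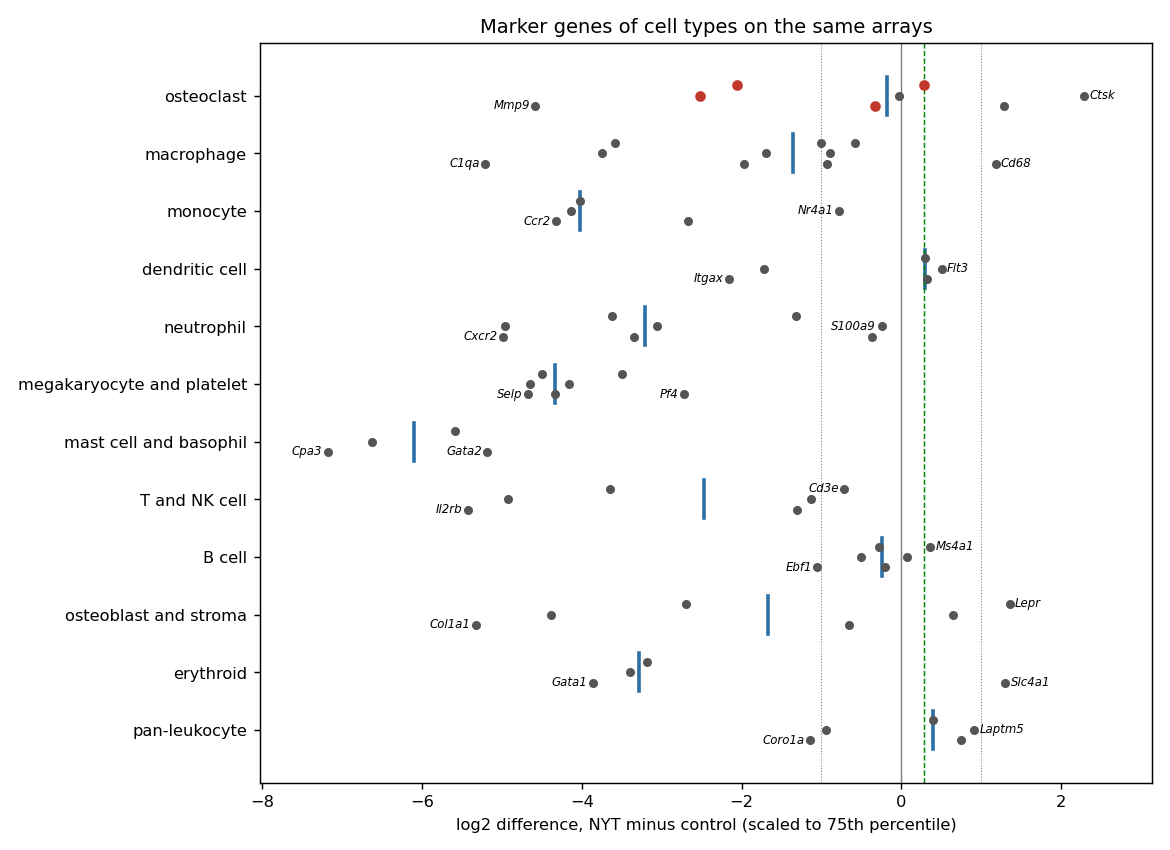
Log2 differences, NYT minus control, of marker genes measured on both arrays, drawn as for the pathway lists, with the osteoclast members in red. The monocyte and megakaryocyte markers lie to the left, with medians of -4.02 and -4.33, while the osteoclast markers spread from Mmp9 (-4.58) to Ctsk (2.29).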

How the data were processed

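The authors deposited the scanner's processed spot intensity for each array. Per the file headers it came from Agilent Feature Extraction 10.7.1.1 (version 9.5.1.1 in the submitters' processing notes), detrended and with surrogates near background. Their deposited 0 or 1 flags name outlier, saturated and well-above-background spots. Their value table, an intensity that its values show to be quantile normalized, was an alternative. Outlier spots (165 on the NYT array, 258 on the control array) were dropped, log2 intensity was averaged per probe, and the array's own 75th percentile was taken off. A probe was detected when more than 50% of its spots were well above background, and a gene was read from its brightest probe detected on both arrays. A gene detected on 1 array got a bound, with the other array set at its lowest detected signal or at the gene's own reading there, whichever was brighter. Names came through RefSeq (GRCm38.p6), 26754 by accession and 4453 by symbol or synonym. Differences of 2-fold were counted, and p-values were not computed. Precision is limited by having 1 array per group.

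The 10 genes and the lists were chosen with earlier results of these data known. All 10 were named. Each list gave up to 4 genes with the largest difference of at least 2-fold and up to 2 with such a bound, while small families, ligands, receptors and markers could be named, and some genes are not reported here. Alternatives were quantile, median, loess and spike-in scaling, no scaling, normexp (limma 3.58.1, offset 50), the authors' table, no filter, the mean over probes, another flag and 3-fold. Counting was tested on simulated data in Python 3.11.15.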

Additional observations from a re-analysis of the deposited data

How the results depend on the processing

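No paired analysis was possible because only a single array stood for either group, which also kept any array from being left out. Among all genes, 211 were higher and 6190 lower by 2-fold without scaling, 166 and 7485 with spike-in scaling, and 4755 and 3414 when dim probes were kept, which tests more genes. At 3-fold 507 were higher and 1167 lower. After loess 923 were higher, and with the significance flag 3577. Of the 9 osteoclast genes, 1 was at least 2-fold higher with quantile normalization, after loess and in the authors' value table, and 0 without scaling, with spike-in scaling and at 3-fold. Those at least 2-fold lower numbered 4 without scaling and with spike-in scaling. Their median was 0.47 with quantile normalization, -0.73 without scaling, 0.076 after loess, -0.895 with spike-in scaling, 0.39 with normexp, 0.46 in the authors' table and 0.53 with no filter, which adds Calcr. Clcn7 and Tnfrsf11a turned to -0.063 and -0.12 with spike-in scaling. The cause was not tested where scaling moved a value. Acp5 and Dcstamp stayed at least 2-fold lower in the 8 scalings and background treatments. Genes with a mean intensity under 100 over both arrays, Src, Ocstamp and Calcr among them, are limited by spot noise. Dcstamp was also dim on the NYT array (85.6), and its difference was -2.52 as scaled and -1.82 with normexp.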

Other observations

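Bone-forming and stromal cells are the usual source of RANK ligand, and their part in the Tnfsf11 reading was not tested. As scaled, 4 of their 6 measured markers stood below 0 and 2 above. Of 6 measured, 3 were at least 2-fold lower and 1 was higher, with a median log2 difference of -1.67 as scaled and -2.69 without scaling. Cxcl12, a chemokine that holds blood cells in marrow, had an intensity of 40.5 on the NYT array and 531.9 on the control array, a difference of -2.70. Postn, a matrix protein of periosteum, was detected on the control array alone, with a bound of at least 28.0-fold lower for NYT, and Ibsp, bone sialoprotein, at least 3.57-fold lower. Runx2 and Alpl, which mark osteoblasts, were dim on both arrays and differed by -0.65 and 0.64, and Sp7 was detected on neither. Bglap, osteocalcin, was detected on the NYT array alone, with a bound under 2-fold (1.93). Lepr, a marker of marrow stroma that other cells also use, was higher (an intensity of 3161 on the NYT array and 2504 on the control array, 1.36 as scaled, 0.34 without scaling).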
